A study of Mus musculus with 7 samples.

Results

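Matrix metalloproteinases (MMPs), ADAMTS proteases and the tissue inhibitors of metalloproteinases (TIMPs) were examined in mouse embryonic fibroblasts that make, lack or are depleted of tenascin-C, a large matrix glycoprotein encoded by Tnc. Members were the genes with an Mmp, Timp or Adamts symbol followed by a number, taken from probe sets annotated with a single gene. The rule found 44 of 19937 genes: 22 Mmp, 18 Adamts and 4 Timp genes, measured by 68 probe sets. For a gene with several probe sets the one with the highest mean was used.

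The 3 groups of spontaneously immortalised fibroblasts were compared on 7 Affymetrix whole-transcript arrays. The knockout group was 2 clones of tenascin-C knockout mouse origin. The knockdown group was 2 clones of wild-type origin that stably carried a tenascin-C short hairpin RNA. The wild-type group was 3 clones from a wild-type mouse with neither change. All were seeded at 50000 cells per well, cultured for 2 days in serum-containing medium and given no treatment. Strain and age are not stated in the labels, and no group with a control hairpin is analysed here, so knockdown and transfection with a hairpin cannot be told apart. The labels number the clones without saying whether a group's clones share an animal, so p-values measure only the spread between these clones. Sex-linked genes, given below, differed between the 2 knockout clones. In such bulk RNA, fewer cells of a type and less RNA per cell cannot be told apart.

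These zinc-dependent enzymes cut the extracellular matrix and molecules at the cell surface. MMPs are made as inactive precursors in which a cysteine of the propeptide covers the catalytic zinc, and most are secreted, while the membrane-type MMPs stay attached to the cell. ADAMTS proteases carry thrombospondin repeats that help place them in the matrix, where some trim procollagens and others cut proteoglycans such as aggrecan and versican. TIMPs bind the active site and block it. In rabbit synovial fibroblasts, mixed substrates of fibronectin and tenascin-C are known to raise collagenase and stromelysin, which makes this gene set a natural one to read in cells without tenascin-C.

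Tnc itself, read as a check of the labels, had log2 signals of 8.05 and 8.51 in knockout clones, 7.34 and 6.52 in knockdown clones, and 10.89, 11.42 and 11.38 in wild-type clones. It fell by 2.95 in knockout and by 4.30 in knockdown on the log2 scale (limma, adjusted p = 0.042 and 0.0339). Each of these calls ended whenever any single array was left out (adjusted p from 0.0752 to 0.163 and from 0.0948 to 0.297). Whether this probe set reads the deleted part of Tnc is not known here. Fibroblast markers were present: 8 of 9 lay above the array median on every array, Lum being the exception, and their mean log2 signal ran from 10.60 to 10.67 in knockout, 10.92 to 11.14 in knockdown and 10.41 to 11.17 in wild type. The macrophage list had 1 of 6 genes above the array median on every array, Cd68, and the lists for neutrophils and endothelium had 0 of 4 each. The cartilage list had 2 of 4 genes above it on every array, Sox9 at 8.40 to 8.94 and Col2a1 at 6.75 to 7.79. Acan and Comp lay below the median on every array. The epithelial list had 1 of 5 genes above the array median on every array, Krt8, and a mean of 5.03 to 5.76 in knockout, 5.19 to 5.39 in knockdown and 5.62 to 5.83 in wild type. Its member Krt19 had 8.45 and 4.87 in knockout clones, 6.06 and 5.67 in knockdown clones, and 8.22, 8.25 and 8.51 in wild-type clones, a pattern that Epcam, Cdh1, Krt8 and Krt18 did not show. Sex-linked genes separated clones within groups: Xist stood at 8.80 on knockout array 2 and at 3.51 to 3.77 elsewhere, and the Y-linked Uty had 3.14 on knockout array 2 and 4.98 on knockdown array 2, with 6.75 to 8.02 on the remaining 5. Knockout array 1 thus had a male pattern, with Xist at 3.77 and Uty at 7.57, and knockout array 2 a female pattern. The 2 knockout clones therefore do not read as cells of 1 animal.

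The promoters shown here belong to 4 MMP genes that lie in a row of 10 Mmp genes on chromosome 9, because 3 of these, Mmp13, Mmp3 and Mmp10, were all highest on the same pair of arrays, while Mmp7 varied little. Each sequence is the 250 bases before the annotated RefSeq start (build GRCm38.p6, plus strand), with the AP-1 letters TGACTCA or TGAGTCA in capitals. AP-1 is the Fos and Jun family of transcription factors.
Mmp13 (chr9:7272264-7272513): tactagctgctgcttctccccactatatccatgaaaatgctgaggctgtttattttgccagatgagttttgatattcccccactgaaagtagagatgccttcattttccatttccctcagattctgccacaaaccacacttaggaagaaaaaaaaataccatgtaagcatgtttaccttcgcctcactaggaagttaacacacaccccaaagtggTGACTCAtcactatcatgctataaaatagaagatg
Mmp3 (chr9:7445572-7445821): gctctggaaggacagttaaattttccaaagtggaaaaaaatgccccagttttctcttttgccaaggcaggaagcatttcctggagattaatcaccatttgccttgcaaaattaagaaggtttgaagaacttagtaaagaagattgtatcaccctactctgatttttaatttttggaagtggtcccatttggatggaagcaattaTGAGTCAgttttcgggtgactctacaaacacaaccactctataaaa
Mmp10 (chr9:7502092-7502341): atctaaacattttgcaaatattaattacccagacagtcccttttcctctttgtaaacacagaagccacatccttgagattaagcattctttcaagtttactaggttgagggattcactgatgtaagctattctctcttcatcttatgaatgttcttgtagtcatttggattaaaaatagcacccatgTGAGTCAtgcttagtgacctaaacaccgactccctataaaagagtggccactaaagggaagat
Mmp7 (chr9:7691840-7692089): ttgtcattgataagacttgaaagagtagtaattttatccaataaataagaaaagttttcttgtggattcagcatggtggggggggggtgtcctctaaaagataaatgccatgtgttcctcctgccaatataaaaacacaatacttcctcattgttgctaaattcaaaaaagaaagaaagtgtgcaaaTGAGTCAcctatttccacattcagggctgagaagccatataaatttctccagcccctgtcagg

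The first base of the AP-1 letters lay 35 bases before the start in Mmp13, 46 in Mmp3 and 63 in both Mmp10 and Mmp7. Searched on both strands, the letters were present in 7 of the 10 genes of the chromosome 9 row (Mmp13, Mmp12, Mmp1b, Mmp3, Mmp1a, Mmp10 and Mmp7) and in 0 of the 20 other members with a promoter entry. A gene was counted if any of its windows matched, and Mmp12 and Mmp7 each also had a window without the letters. Counted by window, the letters stood in 7 of 33 member windows (21.2%) and in 4.46% of all 32851 promoter windows of this length. A match describes letters in this window and shows neither a bound site nor a cause, and 4 of the 7 genes, Mmp12, Mmp1a, Mmp1b and Mmp7, stayed below the array median on every array. Promoter entries were found for 30 of the 44 members; Adamts5, Adamts4, Mmp16, Mmp19, Mmp2 and Mmp9 were among the 14 without one.

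Members differed in whether they could be read at all. Of the 44 genes, 40 passed the filter on low values, for which 2 or more arrays had to place the gene above their own 25th percentile. Mmp1a and Mmp1b, the rodent interstitial collagenases, Mmp8, the neutrophil collagenase, and Timp4 did not pass, with log2 signals of 2.72 to 4.03 on any array, and were not tested. Another 11 members passed but lay below the array median on all 7 arrays: Mmp7 (matrilysin), Mmp12 (macrophage elastase), Mmp20 (enamelysin), Mmp21, Mmp25, Mmp27, Adamts8, Adamts13 (the protease of von Willebrand factor), Adamts15, Adamts19 and Adamts20. Their values ran from 4.21 to 5.39, with a range over arrays of at most 0.53 for any of them. By contrast 20 members lay above the median on every array, and 7 of these above the upper quartile on every array: Mmp2, Mmp14, Mmp19, Adamts1, Timp1, Timp2 and Timp3. Signals of different probe sets do not share a scale, so levels of different genes are not compared.

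No member passed the test over all genes in any comparison. Fitted with limma across 16801 genes and adjusted by the Benjamini-Hochberg method, 0 of 40 members had an adjusted p under 0.05 in knockout against wild type, a threshold passed by 0.167% of all genes. The count was also 0 of 40 in knockdown against wild type (0.0179% of all genes), in the mean of both deficient groups against wild type (0.0298%, of which 0.0119% lower) and in knockout against knockdown (0.375%). At an unadjusted p under 0.05 the counts were 9 of 40 in knockout (12.8% of all genes), 1 of 40 in knockdown (14.1%), 5 of 40 for the mean of both (12.3%) and 4 of 40 between knockout and knockdown (17.9%). For the mean of both groups, 4 of the 5 were higher and 1 lower (6.48% and 5.78% of all genes), and between knockout and knockdown 1 was higher and 3 were lower (9.05% and 8.87%). Both deficient groups were compared with the same wild-type arrays, so their values are given side by side and are not independent.

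**Figure D1:**
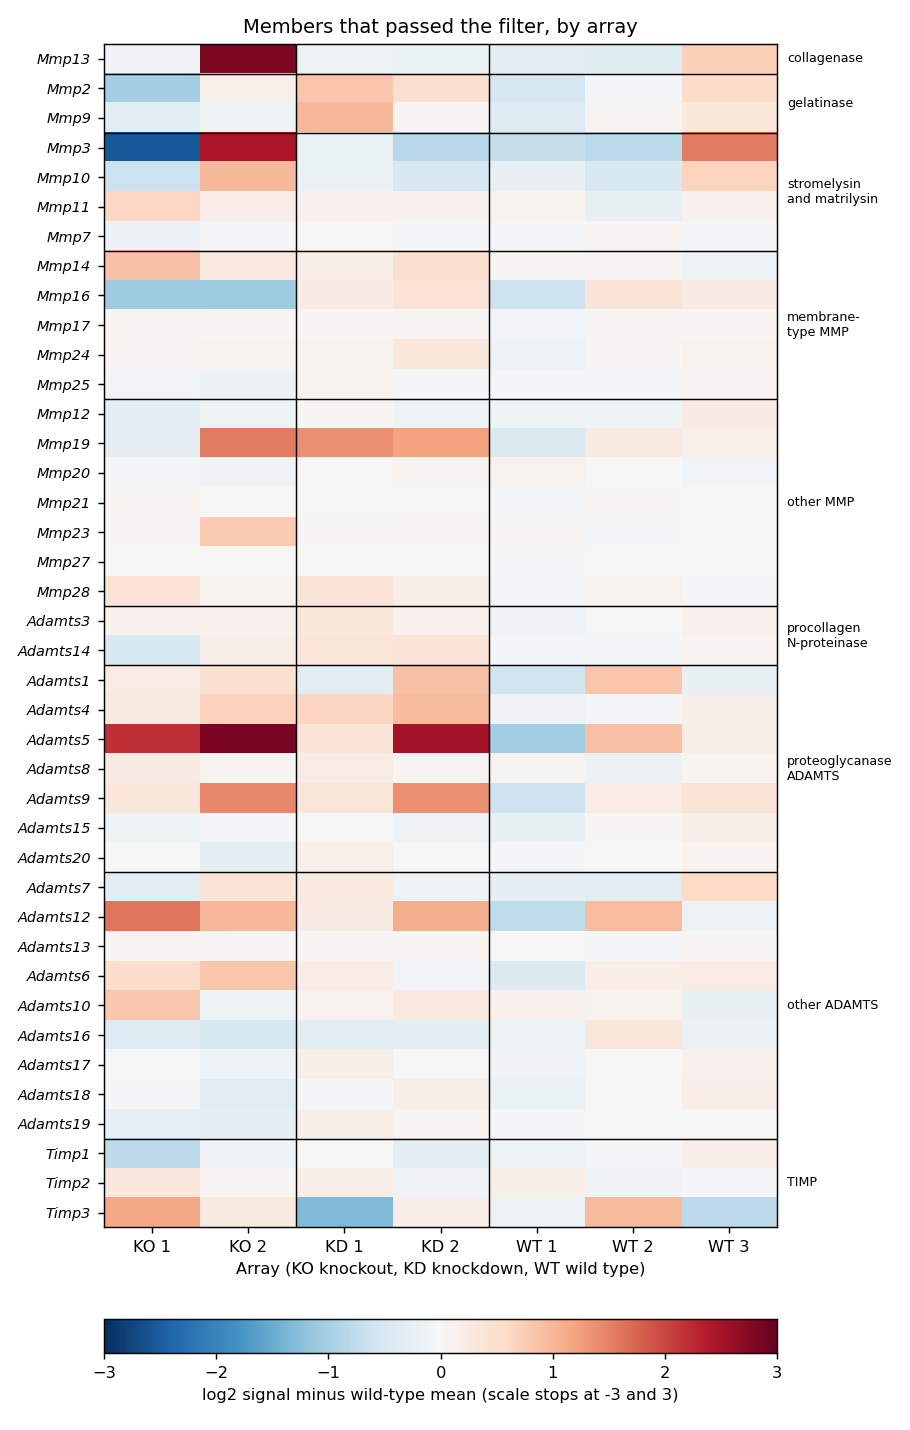
Log2 signal of each of the 40 members that passed the filter, minus its wild-type mean, on the 7 arrays (knockout, KO; knockdown, KD; wild type, WT), with subfamilies separated by lines and the colour scale stopped at -3 and 3. Adamts5 is above its wild-type mean on all 4 deficient arrays, while Mmp3 and Mmp13 differ most between the knockout clones.

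The proteoglycan-cleaving ADAMTS subfamily held the largest difference between knockout and wild type. Its 7 tested members had a median log2 difference of 0.34 in knockout and 0.27 in knockdown, against -0.03 and 0.03 over all genes. Of the 7, 5 lay higher in knockout (42.6% of all genes) and 6 in knockdown (56.8%). None of them passed over all genes. Adamts5, the main aggrecan-cleaving protease of mouse cartilage, had log2 signals of 9.82 and 10.48 in knockout clones, 8.01 and 10.12 in knockdown clones, and 6.58, 8.51 and 7.80 in wild-type clones. Both knockout clones lay above every wild-type clone, whereas knockdown array 1 lay inside the wild-type range. The difference was 2.52 ± 0.777 (SE) in knockout (n = 2 against 3, limma adjusted p = 0.279) and 1.44 ± 0.777 in knockdown (limma adjusted p = 0.475). The wild-type clones themselves spanned 1.93 and the knockdown clones 2.12, gaps exceeded by 0.512% and 0.19% of genes in those groups. Without knockdown array 1 the knockdown difference was 2.49, and without knockdown array 2 it was 0.38.

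Adamts4, the other aggrecanase, had smaller differences and tighter clones. Its log2 signals were 6.54 and 6.96 in knockout clones, 6.91 and 7.21 in knockdown clones, and 6.15, 6.20 and 6.44 in wild-type clones, so all 4 deficient clones lay above all 3 wild-type clones. The difference was 0.48 ± 0.171 (SE) in knockout (limma adjusted p = 0.335) and 0.79 ± 0.171 in knockdown (limma adjusted p = 0.168). No other member had an unadjusted p under 0.05 in knockdown. For the mean of both deficient groups it was 0.64 ± 0.143 (limma adjusted p = 0.221). In that last comparison 4 of 40 members lay higher without overlap, against 4.15% of all genes, and the others were Mmp14, Mmp23 and Mmp28. Mmp23, chosen after its values were seen, had 5.48 and 6.21 in knockout clones, and 5.48 and 5.50 in knockdown clones. Its wild-type clones had 5.47, 5.41 and 5.44, so the margin was narrow. Adamts16 was the 1 of 40 members that lay lower without overlap, against 3.55% of all genes.

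Adamts9 and Adamts1, which cut versican, were read well above the array median. Adamts9 had 8.11 and 9.20 in knockout clones, 8.13 and 9.12 in knockdown clones, and 7.15, 7.98 and 8.16 in wild-type clones, with overlap at 1 clone in each deficient group. Its differences were 0.89 ± 0.483 (SE) and 0.86 ± 0.483 (limma adjusted p = 0.496 and 0.49), and with single arrays left out they ran from 0.34 to 1.43 and from 0.37 to 1.36. Adamts9 was covered by 6 probe sets, which share the transcript, and all 6 lay higher than wild type in both groups, by 0.54 to 1.53 in knockout and by 0.78 to 1.26 in knockdown. Adamts1 had 9.58 and 9.82 in knockout clones, 9.03 and 10.23 in knockdown clones, and 8.75, 10.19 and 9.14 in wild-type clones. Its wild-type clones spanned the values of both knockout clones, and the differences were 0.34 and 0.27 (limma adjusted p = 0.801 and 0.858).

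**Figure D2:**
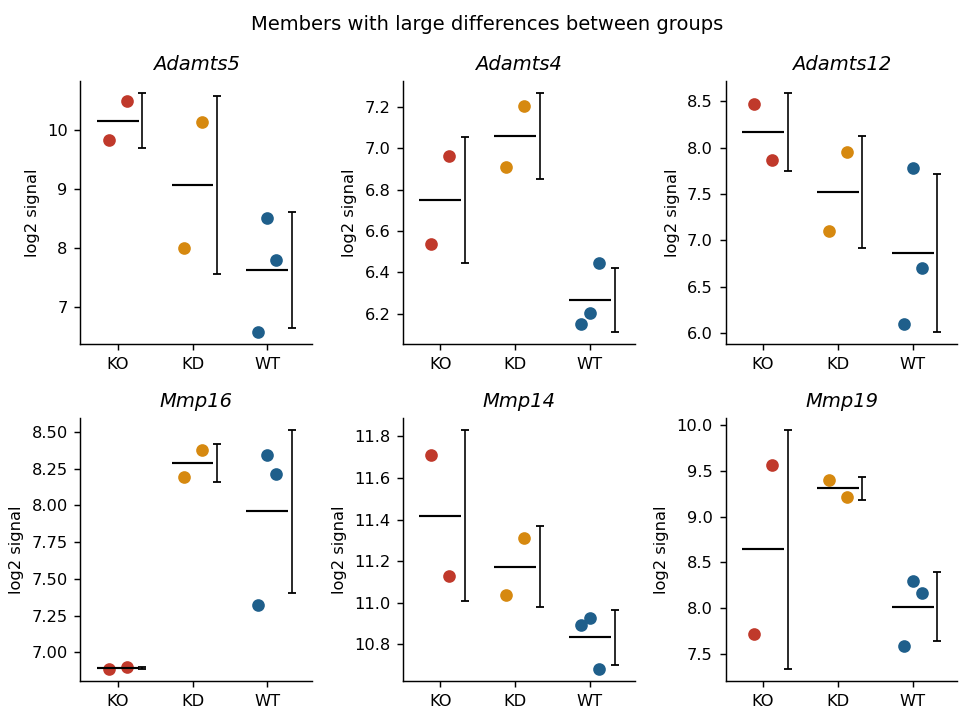
Log2 signal per clone of 6 members in knockout (KO), knockdown (KD) and wild-type (WT) fibroblasts; points are clones, horizontal lines are group means and bars are 1 SD, and each panel has its own vertical scale. Adamts4 and Mmp14 have no deficient clone inside the wild-type range, while Adamts5, Adamts12 and Mmp19 each have one deficient clone within it.

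Among the other ADAMTS genes, Adamts12, a protease of cartilage oligomeric matrix protein, had 8.47 and 7.87 in knockout clones, 7.10 and 7.95 in knockdown clones, and 6.10, 7.78 and 6.70 in wild-type clones. The knockout clones lay above the wild-type range, the lower of them by a narrow margin over wild-type array 2. The difference was 1.31 ± 0.527 (SE) in knockout and 0.67 ± 0.527 in knockdown (limma adjusted p = 0.385 and 0.62). Adamts6, chosen after its values were seen, had 7.04 and 7.33 in knockout clones, 6.72 and 6.43 in knockdown clones, and 6.10, 6.70 and 6.72 in wild-type clones, with a knockout difference of 0.68 ± 0.222 (limma adjusted p = 0.306). Its paralogue Adamts10, linked to fibrillin microfibrils, had 8.19 and 7.25 in knockout clones, 7.49 and 7.68 in knockdown clones, and 7.51, 7.47 and 7.16 in wild-type clones, and differed by 0.34 and 0.21 (limma adjusted p = 0.622 and 0.785). Knockout array 1 lay above the wild-type range and knockout array 2 inside it.

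Adamts19 and Adamts16 had small differences at low signal. Adamts19, chosen after its values were seen, had 4.57 and 4.56 in knockout clones and 4.99 and 4.91 in knockdown clones, against 4.79, 4.84 and 4.83 in wild-type clones. Knockout lay below knockdown by 0.38 on the log2 scale, with the smallest p among members in that comparison (limma adjusted p = 0.101), but all 7 values lay below the array median. Adamts16, likewise chosen after its values were seen, had 5.31 and 5.20 in knockout clones, 5.35 and 5.43 in knockdown clones, and 5.53, 6.02 and 5.50 in wild-type clones. All 4 deficient clones lay below the wild-type range, whose own span was 0.51, and only the wild-type values lay above the array median. The difference was -0.43 in knockout and -0.30 in knockdown (limma adjusted p = 0.37 and 0.492).

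The procollagen N-proteinases, which remove the amino-terminal propeptide of fibrillar procollagens, were represented by Adamts14 and Adamts3; Adamts2 is not analysed here. Adamts14 had 5.72 and 6.37 in knockout clones, 6.54 and 6.56 in knockdown clones, and 6.14, 6.14 and 6.27 in wild-type clones. Knockdown lay above both other groups, by 0.37 over wild type, and knockout lay -0.50 from knockdown (limma adjusted p = 0.443 and 0.272). Adamts3 differed by 0.14 in knockout and 0.23 in knockdown on the probe set used, the highest differences of its 16 probe sets. Of all 16, 6 lay higher in knockout and 10 in knockdown, counts that include probe sets below the filter. Only 8 passed the filter, and their differences ran down to -0.14 in knockout and -0.01 in knockdown.

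Among the membrane-type MMPs, Mmp14 lay higher and Mmp16 lower in knockout than in wild type, and neither passed the test. Mmp14, which encodes MT1-MMP, the fibroblast's main pericellular collagenase and activator of pro-MMP-2, had 11.71 and 11.13 in knockout clones, 11.04 and 11.31 in knockdown clones, and 10.89, 10.93 and 10.68 in wild-type clones. Every deficient clone lay above every wild-type clone. The difference was 0.58 ± 0.193 (SE) in knockout and 0.34 ± 0.193 in knockdown (limma adjusted p = 0.308 and 0.492), or 0.46 ± 0.162 for the mean of both (limma adjusted p = 0.35). With single arrays left out the knockout value ran from 0.29 to 0.88.

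Mmp16, which encodes MT3-MMP, had 6.89 and 6.90 in knockout clones, 8.19 and 8.38 in knockdown clones, and 7.32, 8.34 and 8.22 in wild-type clones. Both knockout clones lay below every other clone, and the knockdown clones lay near the upper wild-type values. Knockout stood at -1.07 ± 0.302 (SE) from wild type (95% interval -1.80 to -0.33, limma adjusted p = 0.239) and at -1.39 ± 0.33 from knockdown (95% interval -2.20 to -0.59, limma adjusted p = 0.138). Without wild-type array 1, the lowest wild-type clone, the first difference was -1.38 and both passed over all genes (limma adjusted p = 0.0476 and 0.0484). No other member was called in any of the settings tried. The remaining membrane-type genes Mmp17, Mmp24 and Mmp25 stayed within 4.79 and 5.72 on all arrays, and Mmp15 is not analysed here.

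The gelatinases, which degrade denatured collagen and basement membrane collagen, stood lower in knockout than in knockdown without passing the test. Mmp2 had 8.57 and 9.73 in knockout clones, 10.41 and 10.06 in knockdown clones, and 9.08, 9.54 and 10.12 in wild-type clones. Knockout and knockdown clones did not overlap, but the wild-type clones spread across the gap between them. The knockout minus knockdown difference was -1.08 ± 0.464 (SE; limma adjusted p = 0.297), and -0.50 without knockout array 1 and -1.66 without knockout array 2, while against wild type Mmp2 stood at -0.43 in knockout and 0.65 in knockdown (limma adjusted p = 0.686 and 0.546). Mmp9, the gelatinase typical of leukocytes, had 5.11 and 5.28 in knockout clones, 6.41 and 5.46 in knockdown clones, and 5.02, 5.50 and 5.73 in wild-type clones, close to the array medians of 5.38 to 5.49. Its knockout minus knockdown difference was -0.74 ± 0.354 (limma adjusted p = 0.334), and -0.27 without knockdown array 1 and -1.22 without knockdown array 2. The macrophage markers had a mean log2 signal of 4.72 to 4.87 in knockout, 4.59 to 4.63 in knockdown and 4.56 to 4.73 in wild type, and the neutrophil markers 4.48 to 4.51, 4.59 to 4.62 and 4.51 to 4.68. Within the macrophage list Lyz2 had 5.59 and 4.81 in knockout clones, 3.96 and 4.26 in knockdown clones, and 4.06, 4.03 and 4.25 in wild-type clones. Lyz2 was thus higher in knockout than in wild type. In the same comparison Cd14 stood at 0.29 and Cd68 at 0.12, but Ptprc at -0.15 and Csf1r at -0.33. The part of these markers in the Mmp9 values was not tested.

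None of the TIMP genes passed the test, and Timp3 varied widely between clones of a group. Timp1, a secreted inhibitor induced by growth factors, had 10.06 and 10.71 in knockout clones, 10.84 and 10.54 in knockdown clones, and 10.70, 10.78 and 11.05 in wild-type clones. It stood at -0.46 ± 0.22 (SE) in knockout and -0.15 ± 0.22 in knockdown (limma adjusted p = 0.456 and 0.803), with knockout array 1 alone clearly below the rest. Timp2, which with MT1-MMP forms the complex that activates pro-MMP-2, had 11.32 and 11.04 in knockout clones, 11.17 and 10.88 in knockdown clones, and 11.15, 10.88 and 10.92 in wild-type clones. Its difference was 0.20 in knockout (95% interval -0.15 to 0.55, limma adjusted p = 0.588) and 0.05 in knockdown (95% interval -0.31 to 0.40, limma adjusted p = 0.917).

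Timp3, the matrix-bound inhibitor that also blocks ADAM17 and aggrecanases, had 11.87 and 10.98 in knockout clones, 9.39 and 10.90 in knockdown clones, and 10.55, 11.65 and 9.93 in wild-type clones. Wild-type clones alone spanned 1.72 and knockdown clones 1.51, gaps that 0.673% and 0.488% of genes exceeded in those groups. The difference was 0.71 ± 0.651 (SE) in knockout, -0.57 ± 0.651 in knockdown and 1.28 ± 0.714 between knockout and knockdown (limma adjusted p = 0.663, 0.74 and 0.392). With single arrays left out the first and last ran from 0.26 to 1.18 and from 0.52 to 2.03. Timp4 was not above the filter, at 3.68 to 4.03 on all arrays.

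**Figure D3:**
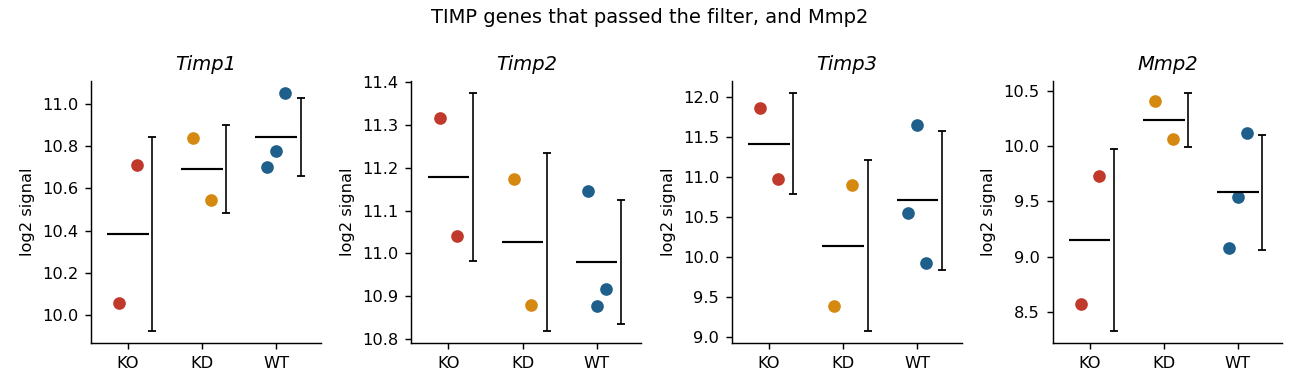
Log2 signal per clone of the 3 TIMP genes that passed the filter and of Mmp2 in knockout (KO), knockdown (KD) and wild-type (WT) fibroblasts; points are clones, lines are means and bars are 1 SD, each panel on its own scale. Timp2 spans 10.88 to 11.32 over all clones and Timp3 9.39 to 11.87.

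Of the remaining MMPs, Mmp19, a secreted protease with basement membrane substrates, had 7.72 and 9.57 in knockout clones, 9.40 and 9.22 in knockdown clones, and 7.59, 8.30 and 8.17 in wild-type clones. Both knockdown clones and knockout array 2 lay above the wild-type range, and knockout array 1 lay inside it. The difference was 1.29 ± 0.53 (SE) in knockdown and 0.63 ± 0.53 in knockout (limma adjusted p = 0.354 and 0.636). Mmp11, or stromelysin-3, which is released in active form after cleavage by furin, had 8.16 and 7.73 in knockout clones, 7.67 and 7.66 in knockdown clones, and 7.65, 7.31 and 7.66 in wild-type clones; it differed by 0.40 and 0.12 (limma adjusted p = 0.388 and 0.779). Both of its knockout clones lay above the wild-type range, knockout array 2 only narrowly. Mmp28, or epilysin, chosen after its values were seen, had 6.13 and 5.82 in knockout clones, 6.10 and 5.90 in knockdown clones, and 5.65, 5.81 and 5.67 in wild-type clones. Its difference for the mean of both deficient groups was 0.28 ± 0.103 (limma adjusted p = 0.373), and knockout array 2 exceeded the highest wild-type clone only narrowly.

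The stromelysin genes Mmp3 and Mmp10 and the collagenase gene Mmp13 differed widely between clones of the same group; Mmp3 and Mmp10 were chosen after their values were seen. Stromelysins cut proteoglycans and laminin and activate other pro-MMPs, and Mmp13 encodes collagenase-3, the main secreted interstitial collagenase of mouse mesenchyme. Mmp3 had 4.70 and 9.68 in knockout clones, 7.03 and 6.40 in knockdown clones, and 6.52, 6.42 and 8.76 in wild-type clones. The knockout clones were thus the lowest and the highest of the 7, separated by 4.99, and 0 of the other tested genes had a larger gap between the knockout arrays. The knockout difference of -0.04 ± 1.49 (SE) has a 95% interval from -3.68 to 3.59 (limma adjusted p = 0.995).

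Mmp10 had 4.92 and 6.54 in knockout clones, 5.36 and 5.10 in knockdown clones, and 5.34, 5.11 and 6.23 in wild-type clones. Mmp13 had 4.60 and 7.52 in knockout clones, 4.56 and 4.51 in knockdown clones, and 4.37, 4.36 and 5.42 in wild-type clones. On all 3 genes knockout array 2 was highest and wild-type array 3 next, while the knockdown clones lay between 4.51 and 7.03. Mmp13 differed by 1.34 ± 0.831 in knockout and -0.18 ± 0.831 in knockdown (limma adjusted p = 0.54 and 0.952); without knockout array 2 the first value was -0.115. The gap between knockout clones was 2.91 for Mmp13 and 1.62 for Mmp10, exceeded by 0.167% and 0.839% of genes. Knockout array 2 is also the array with the high Xist signal given above. Of the 6 macrophage markers only Cd14 was highest on the same pair of arrays. It had 4.86 and 5.95 in knockout clones, 5.17 and 5.13 in knockdown clones, and 4.68, 4.95 and 5.72 in wild-type clones. Csf1r was highest on wild-type array 1 (5.31) and Lyz2 on knockout array 1 (5.59). Cd68 was highest on knockout array 2 (5.88) but lowest on wild-type array 3 (5.59), while Ptprc and Adgre1 stayed between 3.62 and 4.23 on all arrays. The part of these differences in the values was not tested.

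**Figure D4:**
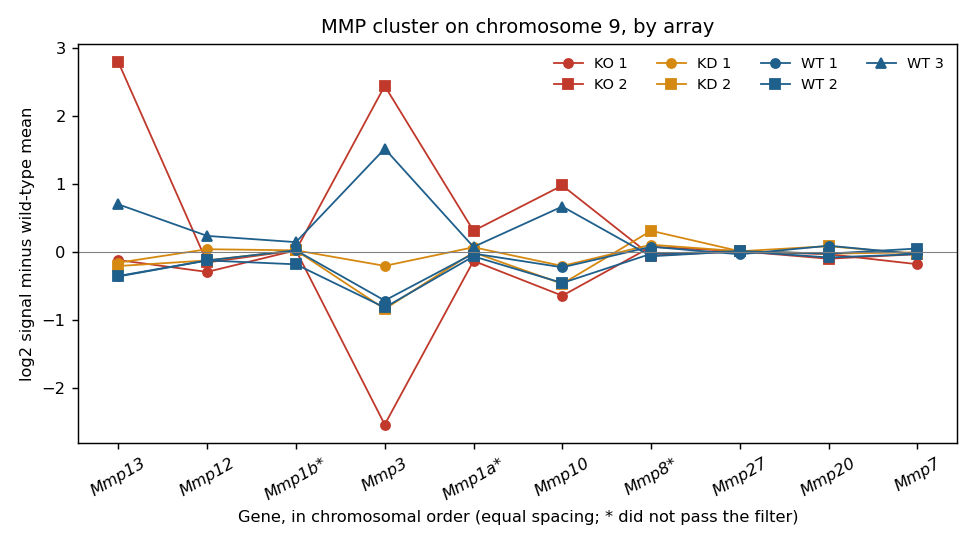
Log2 signal minus the wild-type mean for the 10 Mmp genes in a row on chromosome 9, in gene order and equally spaced, with a line for each knockout (KO), knockdown (KD) and wild-type (WT) array. Mmp13, Mmp3 and Mmp10 peak on knockout array 2 and wild-type array 3, while the other 7 genes span at most 0.53 over the arrays.

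The other 7 genes of the row varied little. Mmp12, Mmp1b, Mmp1a, Mmp8, Mmp27, Mmp20 and Mmp7 each spanned at most 0.53 over the 7 arrays, with Mmp12 the widest. Of these, Mmp12, Mmp1b, Mmp1a and Mmp7 carry the same AP-1 letters that are shown above for Mmp13, Mmp3 and Mmp10.

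Wide gaps between clones of a group were found in several subfamilies. A gap above 1 on the log2 scale between the highest and lowest clone was found for 6 of 40 members in knockout (15%, against 2.2% of all genes), 3 of 40 in knockdown (7.5%, against 1.43%) and 10 of 40 in wild type (25%, against 2.38%). In knockout these were Mmp3, Mmp13, Mmp19, Mmp10, Mmp2 and Adamts9, and in knockdown Adamts5, Timp3 and Adamts1. In wild type they were Mmp3, Adamts5, Timp3, Adamts12, Adamts1, Mmp10, Mmp13, Mmp2, Mmp16 and Adamts9. The median gap of the members was 0.27 in knockout, 0.18 in knockdown and 0.35 in wild type, against 0.16, 0.14 and 0.21 over all genes. Wild-type array 1 had the lowest value of its group for many members, not only for Adamts5, Adamts9, Adamts12, Mmp2, Mmp16 and Mmp19. Adamts1, Adamts4, Adamts6, Mmp9, Mmp28 and Timp1 were also lowest there, while Mmp3, Mmp14, Timp2 and Timp3 were not. How often wild-type array 1 was lowest over all genes was not counted. Fibroblast markers were mixed on this array. In wild-type clones Lum had 5.06, 9.26 and 9.13, Dcn 9.61, 10.93 and 11.62, and Pdgfrb 9.42, 10.24 and 10.48. Col1a1 (11.60, 12.13 and 11.61) and Vim (12.63, 12.72 and 12.67) were lowest there by a narrow margin. Pdgfra (11.40, 10.98 and 11.17) and S100a4 (10.44, 10.39 and 9.96) were highest there, and Thy1 and Col1a2 were not lowest there. The part of these markers in the protease values was not tested.

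By direction, 24 of 40 members lay higher in knockout than in wild type, against 42.6% of all genes, with a median of 0.04 against -0.03. In knockdown 31 of 40 lay higher, against 56.8% of all genes, with a median of 0.07 against 0.03. Between knockout and knockdown 16 of 40 lay higher in knockout, against 40.3% of all genes, and for the mean of both groups 27 of 40 lay higher, against 50.1%. Without overlap between the groups' clones lay 8 of 40 higher (13.2% of all genes) and 5 of 40 lower (15.3%) in knockout, and 7 of 40 higher (17.5%) and 1 of 40 lower (12.9%) in knockdown. Between knockout and knockdown, 4 of 40 lay higher (17.8%) and 10 of 40 lower (27.2%). Differences above 1 in size were found for 4 of 40 members in knockout (2.29% of all genes), namely Adamts5, Adamts12, Mmp13 and Mmp16, and for 2 of 40 in knockdown (1.11%), Adamts5 and Mmp19. Between knockout and knockdown there were 5 of 40 (2.4%), Adamts5, Mmp13, Mmp16, Mmp2 and Timp3.

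**Figure D5:**
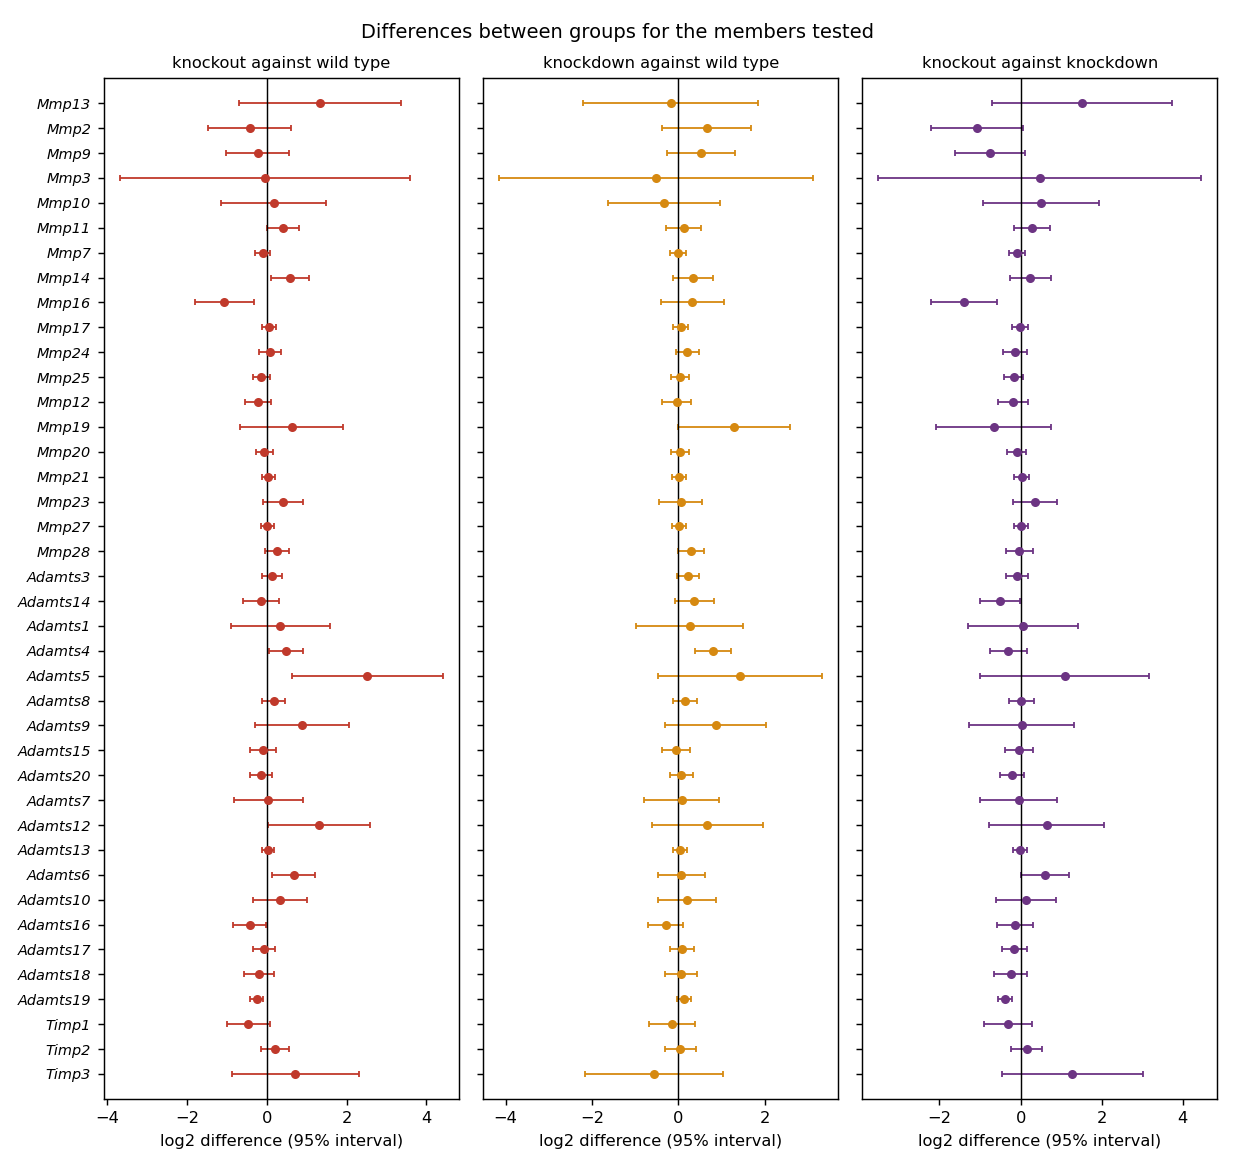
Log2 difference of each tested member with its unadjusted 95% interval from the limma fit, for knockout against wild type, knockdown against wild type and knockout against knockdown. Intervals are widest for Mmp3, Mmp13 and Adamts5, and Mmp16 lies below 0 in both panels that hold the knockout.

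Genes that activate, restrain or clear these proteases were read from further lists, and 0 members of any list passed over all genes by limma in any comparison. In the list for activation, surface control and clearance, 2 of 13 genes were higher and 1 lower in knockout at an unadjusted p under 0.05, against 7.33% and 5.5% of all genes. Reck, a membrane-anchored inhibitor of MMPs, had 6.91 and 6.50 in knockout clones, 7.18 and 7.21 in knockdown clones, and 7.33, 7.85 and 7.22 in wild-type clones, a knockout difference of -0.76 (limma adjusted p = 0.238). Plat, the tissue plasminogen activator gene, differed by 1.06 and 1.03 (limma adjusted p = 0.0712 and 0.111). Pcsk6, a proprotein convertase gene chosen after its values were seen, differed by 1.28 and 0.62 (limma adjusted p = 0.338 and 0.597). Plaur, the urokinase receptor gene, stood at -0.13 in knockout and -0.84 in knockdown (limma adjusted p = 0.558 and 0.0928). Furin, which activates membrane-type MMPs and was chosen after its values were seen, differed by 0.20 and -0.04 (limma adjusted p = 0.745 and 0.968).

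Among 23 other matrix and shedding proteases, 0 had an unadjusted p under 0.05 in knockout, against 12.8% of all genes, and 1 was higher and 2 were lower in knockdown, against 7.12% and 6.99% of all genes. The gene of the tolloid-like protease Tll1 stood at -1.93 in knockdown (limma adjusted p = 0.195), Adam9 at -0.29 (adjusted p = 0.229) and the cathepsin gene Ctsb at 0.43 (adjusted p = 0.29). Of 8 ADAMTS-like and procollagen enhancer genes, 3 were higher in knockout at that level, against 7.33% of all genes: Pcolce2 by 1.72, Adamtsl5 by 0.56 and Pcolce by 0.34 (limma adjusted p = 0.111, 0.21 and 0.374). Pcolce and Pcolce2 encode enhancers of procollagen C-proteinase. Pcolce2 had 10.16 and 10.35 in knockout clones, 8.31 and 8.50 in knockdown clones, and 8.22, 9.16 and 8.22 in wild-type clones, so only the knockout clones stood apart.

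Genes of the substrates stood higher for 12 of 16 in knockout (median 0.38), against 42.6% of all genes. In knockdown 9 of 16 stood higher (median 0.22), close to the 56.8% of all genes. At an unadjusted p under 0.05 by limma, 9 of 16 were higher in knockout and 4 of 16 in knockdown, against 7.33% and 7.12% of all genes. Versican, the substrate of Adamts1, Adamts4, Adamts5 and Adamts9, is encoded by Vcan, which had 10.90 and 11.32 in knockout clones, 11.13 and 10.77 in knockdown clones, and 10.13, 10.49 and 10.11 in wild-type clones. All 4 deficient clones lay above the wild-type range, with differences of 0.87 and 0.71 (limma adjusted p = 0.16 and 0.211). Col4a2 and Col4a1, basement membrane collagen genes, differed by 1.30 and 1.29 in knockout and by -0.06 and -0.27 in knockdown (limma adjusted p = 0.132, 0.163, 0.948 and 0.72).

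Of 11 AP-1 and ETS family genes, 1 was higher and 1 lower in knockout at an unadjusted p under 0.05, against 7.33% and 5.5% of all genes, and 0 were higher and 3 lower in knockdown, against 7.12% and 6.99%. Jun had 9.14 and 9.27 in knockout clones, 8.96 and 9.12 in knockdown clones, and 9.82, 9.85 and 9.62 in wild-type clones. All 4 deficient clones lay below the wild-type range, at -0.56 and -0.72 (limma adjusted p = 0.13 and 0.117). Ets2 differed by 0.51 in knockout and -0.32 in knockdown (limma adjusted p = 0.201 and 0.338). Fosl1 had 8.13 and 8.56 in knockout clones, 7.83 and 7.54 in knockdown clones, and 8.15, 8.08 and 8.13 in wild-type clones, with a knockdown difference of -0.44 (limma adjusted p = 0.288).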

How the data were processed

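Log2 signal values of 34760 probe sets on 7 arrays were taken as the authors deposited them. Per the submitters' processing notes the affy package in R 2.8.0 was used; no source used here names the summarisation, background correction or normalization. That the values are log2 was judged from their range, and array medians lay between 5.38 and 5.49. Single-symbol probe sets (21640) gave 19937 genes, of which 16801 passed the filter. Symbols come from the platform annotation, which can be old, and chromosome and gene order from RefSeq (GRCm38.p6).

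A model with a mean per group over all 7 arrays was fitted by limma (version 3.58.1, under R 4.3.3; two-sided moderated test, 4 residual and 2.06 prior degrees of freedom), with Benjamini-Hochberg adjustment over all genes tested. The script was tested on simulated data. For arrays the number of clones limits the precision.

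Values are given on every array for the 4 Timp genes, members called or among the 6 largest differences of a comparison, and the member with the highest mean of each subfamily. From each pathway list up to 3 genes of smallest unadjusted p under 0.05 in any of the comparisons are named. Any other gene is said to be chosen after its values were seen. Members and lists were chosen with earlier results of these data known.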

Additional observations from a re-analysis of the deposited data

How the results depend on the processing

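The 18 alternatives were no filter, a stricter filter, median centring, quantile normalization, the mean of all probe sets, a replicate block, only the groups compared (not for the mean of both groups), an intensity trend, array weights, each array left out, knockout and knockdown arrays 2 left out, and knockout array 2 with wild-type array 3 left out, the last chosen after seeing the data. By limma, members called stayed at 0 in 17 of 18 settings for knockout against wild type and for knockout against knockdown, and in all 18 and 17 for knockdown and for the mean of both groups, with 1 to 10 members at an unadjusted p under 0.05. Leaving out single arrays gave 0 to 1 calls, the 1 being Mmp16 without wild-type array 1. Deviations of same-numbered arrays from their group means had correlations from -0.074 to 0.199. In a group of 2 the deviations of the 2 clones mirror each other, so these values cannot decide whether the numbers pair the clones. With the replicate block 0 members were called in any comparison; it moved the calls over all genes to 2 in knockout, 0 in knockdown and 2 between knockout and knockdown, from 28, 3 and 63, and with a single array left out these ran from 3 to 71, from 0 to 0 and from 0 to 103. Over the other settings calls over all genes ran from 1 to 79, from 0 to 3 and from 0 to 137, and for the mean of both groups (5) from 0 to 10. Of 621 member values in 35 results, 603 kept direction and side of the threshold, 16 turned sign in 6 results and 2 passed. With single arrays left out Mmp3 in knockout ran from -2.54 to 2.45, Mmp10 from -0.64 to 0.98 and Mmp13 from -0.115 to 2.799 (mean of both groups -0.15 to 1.31); in knockdown Timp2 ran from -0.10 to 0.19 and Timp3 from -1.32 to 0.19. Mmp3 in knockout was also 0.0029 with median centring, 0.72 with the replicate block and 0.33 with array weights. Without knockout and knockdown arrays 2, Mmp13 was -0.115 in knockout (-0.13 for the mean of both groups) and Mmp10 -0.64; without knockout array 2 and wild-type array 3, Mmp10 was -0.30. The cause was not tested, beyond the array left out. Low signal limits the 11 members below the array median.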

Other observations

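Among the 40 tested members, 8 had a log2 value shared to 6 decimals by at least 3 arrays: Mmp7, Mmp12, Mmp17, Mmp21, Mmp27, Adamts3, Adamts8 and Adamts13. For Mmp27 the same value stood on 6 of the 7 arrays. Group SDs of 0 in such genes describe the summarised values and not the clones.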
